A study of Mus musculus with 8 samples.

Results

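Expression of 7 genes for subunits of the GABA-A receptor (Gabra3, Gabra4, Gabra5, Gabrb1, Gabrb2, Gabrg3 and Gabrd) was examined in the mouse striatum, across cell clusters and inbred strains. They were taken by symbol from the 32285 genes of the count matrices, and all 7 were found. The 12 other GABA-A subunit genes in the matrices, Gabra2 among them, were used only for comparison. The nuclei came from frozen striatum of mice aged 12 weeks, for which the labels name no treatment, of 8 inbred strains: the wild-derived WSB/EiJ, PWK/PhJ and CAST/EiJ, the obese NZO/HlLtJ, the diabetes-prone NOD/ShiLtJ, and C57BL/6, A/J and 129S1/SvImJ. The labels write C57BL/6J and NZO/H1LtJ where the deposited table of nuclei has C57BL/6NJ and NZO/HlLtJ, so the first is called C57BL/6 here and the second follows the table. Each of 4 batches mixed nuclei from 8 mice, 1 per strain, ahead of loading, so a strain had 4 mice, 32 in all, each recognised by its strain call and its batch. A batch held 4 male and 4 female mice, but the labels do not tie a sex to a mouse, and sex was not used in any comparison. Whether the sexes were balanced within a strain is therefore not known here, and the part of sex in the strain differences was not tested. Nuclear RNA was counted as unique molecular identifiers (UMIs) with the 10x Genomics Multiome assay, which also reads open chromatin in the same nucleus.

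The GABA-A receptor is a chloride channel made of a ring of subunits, opened by GABA, the main inhibitory transmitter of the brain. Alpha and beta subunits form the GABA binding site, a gamma subunit usually ties the receptor to synapses, and the delta subunit replaces gamma in receptors outside synapses that pass a steady inhibitory current. In the striatum nearly all neurons use GABA, both the projection neurons, which carry the dopamine receptor Drd1 or Drd2, and the interneurons.

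The analysis used 55672 annotated nuclei in the authors' 18 clusters, 944 to 4416 nuclei per mouse. Median UMIs per nucleus ran from 3232 in batch 3 to 4931. Summed libraries of a mouse held 1710451 to 9416806 counts in Drd1+ neurons, 1251786 to 6803437 in Drd2+ neurons and 38252 to 1085998 in astrocytes. Between 188 and 328 barcode sequences were shared by each pair of batches. The marker genes listed for a cell type were highest in the cluster of that name for 5 of 5 astrocyte genes, 4 of 5 Drd2+ and 2 of 5 Drd1+ projection neuron genes. In Drd1+ neuron_2, a smaller cluster, 5 of 5 markers of eccentric projection neurons were highest, while mural cells carried the listed projection neuron markers at 102% of their summed level in Drd1+ neurons, endothelium at 58.7%, ependyma at 42.7% and astrocytes at 14.6%. The sum holds markers of both pathways, and Drd2+ neurons stood at 120% of it. For Pde10a alone, a marker of either pathway, the shares were lower: 76.2% in mural cells, 37.1% in endothelium, 38.4% in ependyma and 6.64% in astrocytes.

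Sequence upstream of the transcript start is shown for the member with the widest strain differences in projection neurons, Gabrg3, and for Gabrb2, whose window held a TATA box and whose test over all strains, alone among the 7, was not called in either kind of projection neuron. Sequences and gene positions are from RefSeq on GRCm38, the reference of C57BL/6J, and were matched by symbol. Promoter windows were found for 6 of 7 members. Gabrg3 lies on chromosome 7 from 56716463 to 57387215 on the minus strand. The 250 bases before its start, chr7:57387216-57387465, lie within a deposited peak of open chromatin that runs from 57386537 to 57387536 and covers the start itself.
Gabrg3: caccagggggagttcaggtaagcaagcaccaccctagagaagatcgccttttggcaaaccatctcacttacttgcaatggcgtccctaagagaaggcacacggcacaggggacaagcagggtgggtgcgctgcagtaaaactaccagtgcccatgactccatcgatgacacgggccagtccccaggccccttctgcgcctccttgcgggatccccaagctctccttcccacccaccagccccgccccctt
For Gabrb2, the 60 bases before the most upstream of its listed starts are chr11:42420380-42420439 on the plus strand. They hold TATAAA, shown in capitals, with its first base 30 bases before that start. The annotated span of the gene begins further upstream, at 42419515, so the match lies within it.
Gabrb2: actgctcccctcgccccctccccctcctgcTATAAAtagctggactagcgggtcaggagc
The windows of the members were searched on both strands for TATAAA and for TGACG, the core of the cyclic AMP response element, whose matches cannot overlap those of the first. The TATAAA letters were in 12.4% of all 32851 windows of the same length and TGACG in 17.8%. Besides Gabrb2, TATAAA was found in Gabra3 alone, on the minus strand relative to the gene. The windows of Gabra3 overlap, and both hold this same site. TGACG was found in no member's window.

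Of the 10 listed starts of members, deposited peaks covered the start of Gabra5, that of Gabrg3 and every start of Gabrb2, against 48.4% of starts over all windows. The listed start of Gabra5, at 57510059 on the minus strand, lies within the annotated span of the gene, which ends at 57591016. All 3 listed starts of Gabrb2 fell in 1 peak (chr11:42420238-42421237). No listed start of Gabra4, Gabrb1 or Gabra3 fell in a peak. The peak nearest to Gabra4 lay 1039 bases from its start, those nearest to the starts of Gabrb1 652 and 275 bases away, and that nearest to the starts of Gabra3 444 and 556 bases away. Gabra4 and Gabrb1 sit head to head on chromosome 5 (71569734 to 71658308 and 71657921 to 72149572), and their annotated spans overlap by 388 bases. Whether counting used the strand is not given in the sources used here, so reads within that overlap cannot be told apart.

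Levels differed widely between clusters. They are given as counts per 1000000 (CPM) of the library total, averaged over mice with at least 10 nuclei in the cluster. Since the clusters were made from the same counts, the differences between clusters are described and not tested. Gabrb1 was highest in astrocytes, Gabrg3 in Drd1+ neuron_2, Gabra4 and Gabrd in the main projection neurons, and Gabra5 and Gabrb2 in Slc17a7+ (excitatory) neurons, while for Gabra3 cholinergic (Chat+) interneurons and Drd1+ neuron_2 could not be ordered. Levels of different genes are set side by side only per kilobase of gene span, a scale that takes reads to come from the whole span; the unspliced share was not measured here. On that scale Gabrd, by far the shortest gene of the 7, stood at 10.2 CPM per kilobase in Drd1+ neurons, Gabra4 at 4.30, Gabrg3 at 1.60, Gabrb2 at 1.52, Gabrb1 at 1.18, Gabra5 at 0.144 and Gabra3 at 0.0131. In Drd2+ neurons Gabra3 stood at 0.109 CPM per kilobase and Gabra5 at 0.114. Without the division by length the order differs, with Gabrg3 first in Drd1+ neurons.

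**Figure D1:**
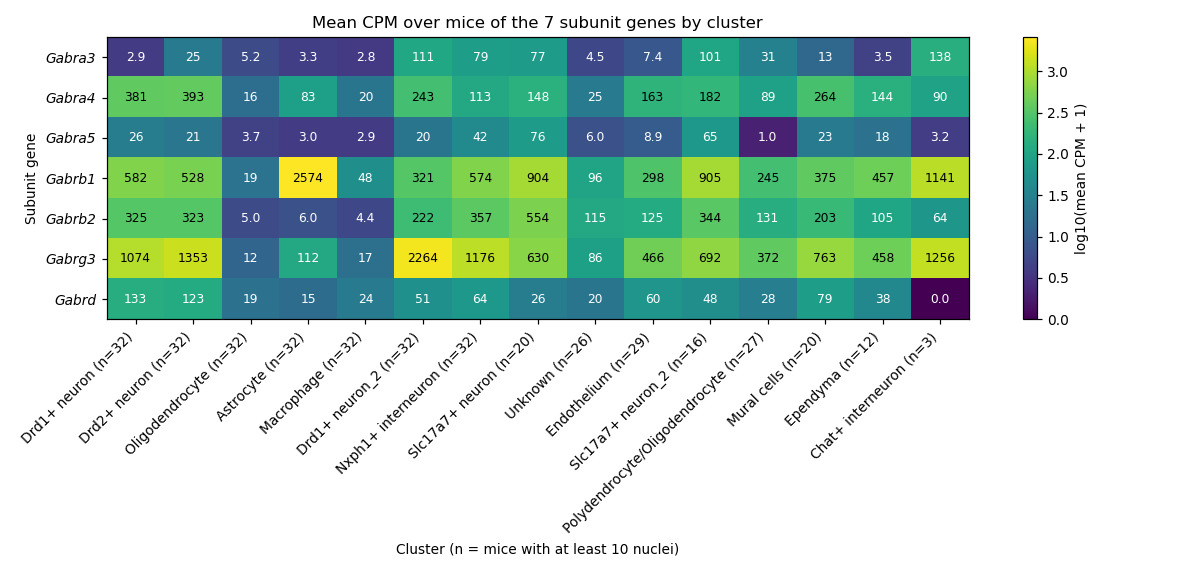
Mean level of each subunit gene (rows) in the 15 clusters with at least 3 mice of 10 or more nuclei (columns, n is the number of mice), as CPM of the library total printed in each cell and as log10(CPM + 1) in colour. Gabrb1 in astrocytes (2574) and Gabrg3 in Drd1+ neuron_2 (2264) are the highest cells of their rows.

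Among the alpha subunits, Gabra4, which pairs with delta in forebrain receptors outside synapses, stood at 393 ± 42.3 CPM in Drd2+ and 381 ± 40.7 in Drd1+ neurons (SD, n = 32 each). The Drd2+ level was the higher one in 23 of 32 mice, so the order of these neighbours was not the same in every animal. Mural cells followed at 264 ± 134 CPM (n = 20), Drd1+ neuron_2 at 243 ± 52.8 (n = 32), and oligodendrocytes came last at 16.3 ± 5.45 (n = 32). The mural, endothelial (163 ± 106 CPM) and ependymal (144 ± 91.5) values of Gabra4 stood in clusters that also carried the projection neuron markers named above, whose part in these levels was not tested. Gabra5, an alpha subunit best known from hippocampal receptors outside synapses, was highest in Slc17a7+ neurons at 76.2 ± 31.4 CPM (n = 20) and Slc17a7+ neuron_2 at 65.1 ± 25.6 (n = 16). It stood at 42.0 ± 22.6 CPM in Nxph1+ interneurons, 26.4 ± 7.63 in Drd1+ and 20.9 ± 5.26 in Drd2+ neurons (n = 32 each). In astrocytes it stood at 3.01 ± 3.07 CPM, and the 57 nuclei of the Unknown_2 cluster had no Gabra5 count, which by the exact Poisson 95% interval allows up to 18.2 CPM. Gabra3, an alpha subunit on the X chromosome, reached 138 ± 34.1 CPM in Chat+ interneurons (n = 3), 111 ± 25.4 in Drd1+ neuron_2 (n = 32) and 101 ± 42.2 in Slc17a7+ neuron_2 (n = 16). Pooled over all nuclei it was 112 CPM in Chat+ interneurons (exact Poisson 95% interval 91.9 to 135, counting error only) and 114 in Drd1+ neuron_2 (106 to 122), so these 2 clusters could not be ordered. It was low in Drd1+ neurons, at 2.94 ± 1.31 CPM, against 24.5 ± 5.74 in Drd2+ neurons. The Drd1+ level rests on 310 counts in all, compared with 2026 in Drd2+ neurons. It was not above the Gabra3 levels of oligodendrocytes (5.17 ± 3.83 CPM) and astrocytes (3.26 ± 3.87), so it cannot be told apart from background RNA, and the ratios and strain values of Gabra3 in Drd1+ neurons share this limit.

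Of the beta subunits, which are needed for the receptor to reach the surface, Gabrb1 had its highest level outside neurons, 2574 ± 553 CPM in astrocytes (n = 32). Chat+ interneurons followed at 1141 ± 27.8 CPM (n = 3) and both Slc17a7+ clusters at 905 ± 174 and 904 ± 201. The 2 Slc17a7+ clusters could not be ordered, as each was the higher one in 7 of the 14 mice with both. Drd1+ neurons held 582 ± 60.5 and Drd2+ neurons 528 ± 61.7 CPM of Gabrb1, while oligodendrocytes held 19.1 ± 8.70 (n = 32 each). Gabrb2 had its highest levels in neurons, with 554 ± 64.5 CPM in Slc17a7+ neurons (n = 20), 357 ± 127 in Nxph1+ interneurons, 325 ± 31.8 in Drd1+ and 323 ± 33.7 in Drd2+ neurons. Nxph1+ interneurons and Slc17a7+ neuron_2 (344 ± 75.8 CPM) split evenly for Gabrb2, with either one higher in 8 of 16 mice. Gabrb2 stood at 203 ± 90.99 CPM in mural cells, 131 ± 78.8 in the Polydendrocyte/Oligodendrocyte cluster, 125 ± 71.4 in endothelium and 105 ± 60.3 in ependyma, against 63.6 ± 42.1 in Chat+ interneurons. The summed projection neuron markers stood at 33.0% of their Drd1+ level in the Polydendrocyte/Oligodendrocyte cluster and 15.8% in Chat+ interneurons, and at the shares given above in the other 3 clusters, and their part in these Gabrb2 levels was not tested. Its level was 5.99 ± 6.76 CPM in astrocytes, 4.97 ± 4.11 in oligodendrocytes and 4.44 ± 8.04 in macrophages.

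Gabrg3, a gamma subunit that is sparse in much of the brain, stood at 2264 ± 416 CPM in Drd1+ neuron_2 and was higher there than in Drd2+ neurons (1353 ± 382) in 32 of 32 mice. Chat+ interneurons (1256 ± 161, n = 3), Nxph1+ interneurons (1176 ± 336) and Drd1+ neurons (1074 ± 369 CPM) followed. Over all nuclei pooled, Chat+ interneurons held 1196 CPM (1128 to 1267, exact Poisson 95% interval) and Nxph1+ interneurons 1251 (1222 to 1281), the opposite order. Nxph1+ interneurons were above Drd1+ neurons in 16 of 32 mice only, so these 2 were not ordered. Astrocytes held 112 ± 50.9 CPM of Gabrg3 and oligodendrocytes 12.1 ± 7.33. Gabrd, the delta subunit, was highest in Drd1+ neurons at 133 ± 33.1 CPM, above Drd2+ neurons (123 ± 33.6) in 25 of 32 mice. All other clusters averaged less Gabrd: 78.9 ± 49.6 in mural cells, whose projection neuron markers stood at 102% of the Drd1+ level, 64.5 ± 38.5 in Nxph1+ interneurons, 51.1 ± 24.7 in Drd1+ neuron_2 and 15.3 ± 9.90 in astrocytes. In Chat+ interneurons the 3 libraries had no Gabrd count. Over all 120 nuclei of that cluster 6 were counted, a pooled level of 6.22 CPM with an exact Poisson 95% interval of 2.28 to 13.5, which covers counting error only.

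The strains were compared on TMM-scaled CPM, in which library totals are corrected for composition by edgeR, so these values differ somewhat from the levels above. In Drd1+ neurons 6 of 7 members differed between strains at an adjusted p under 0.05, and in Drd2+ neurons the same 6, all but Gabrb2. Over all genes tested, 61.7% were called in Drd1+ neurons and 55.9% in Drd2+ neurons, so a strain call alone was common. Gabrg3 had the widest differences of the 7, with CAST/EiJ and PWK/PhJ far below the other strains in both kinds of neuron. Gabrd and Gabra5 were also lowest in CAST/EiJ. The submitters' processing notes list no reference other than mm10 and GRCm38, that of C57BL/6J. How well reads of the other strains map to it, and its part in these strain values, was not tested. Between the highest and the lowest strain mean, Gabra4 and Gabrb1 differed by no more than 1.36-fold, and Gabra3 by 1.72-fold in Drd2+ neurons and, at its background-like level, 2.55-fold in Drd1+ neurons. The calls over all strains were lost under some alternative settings or sample sets for Gabra4 and Gabra3, and in none of those run for the other 4.

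**Figure D2:**
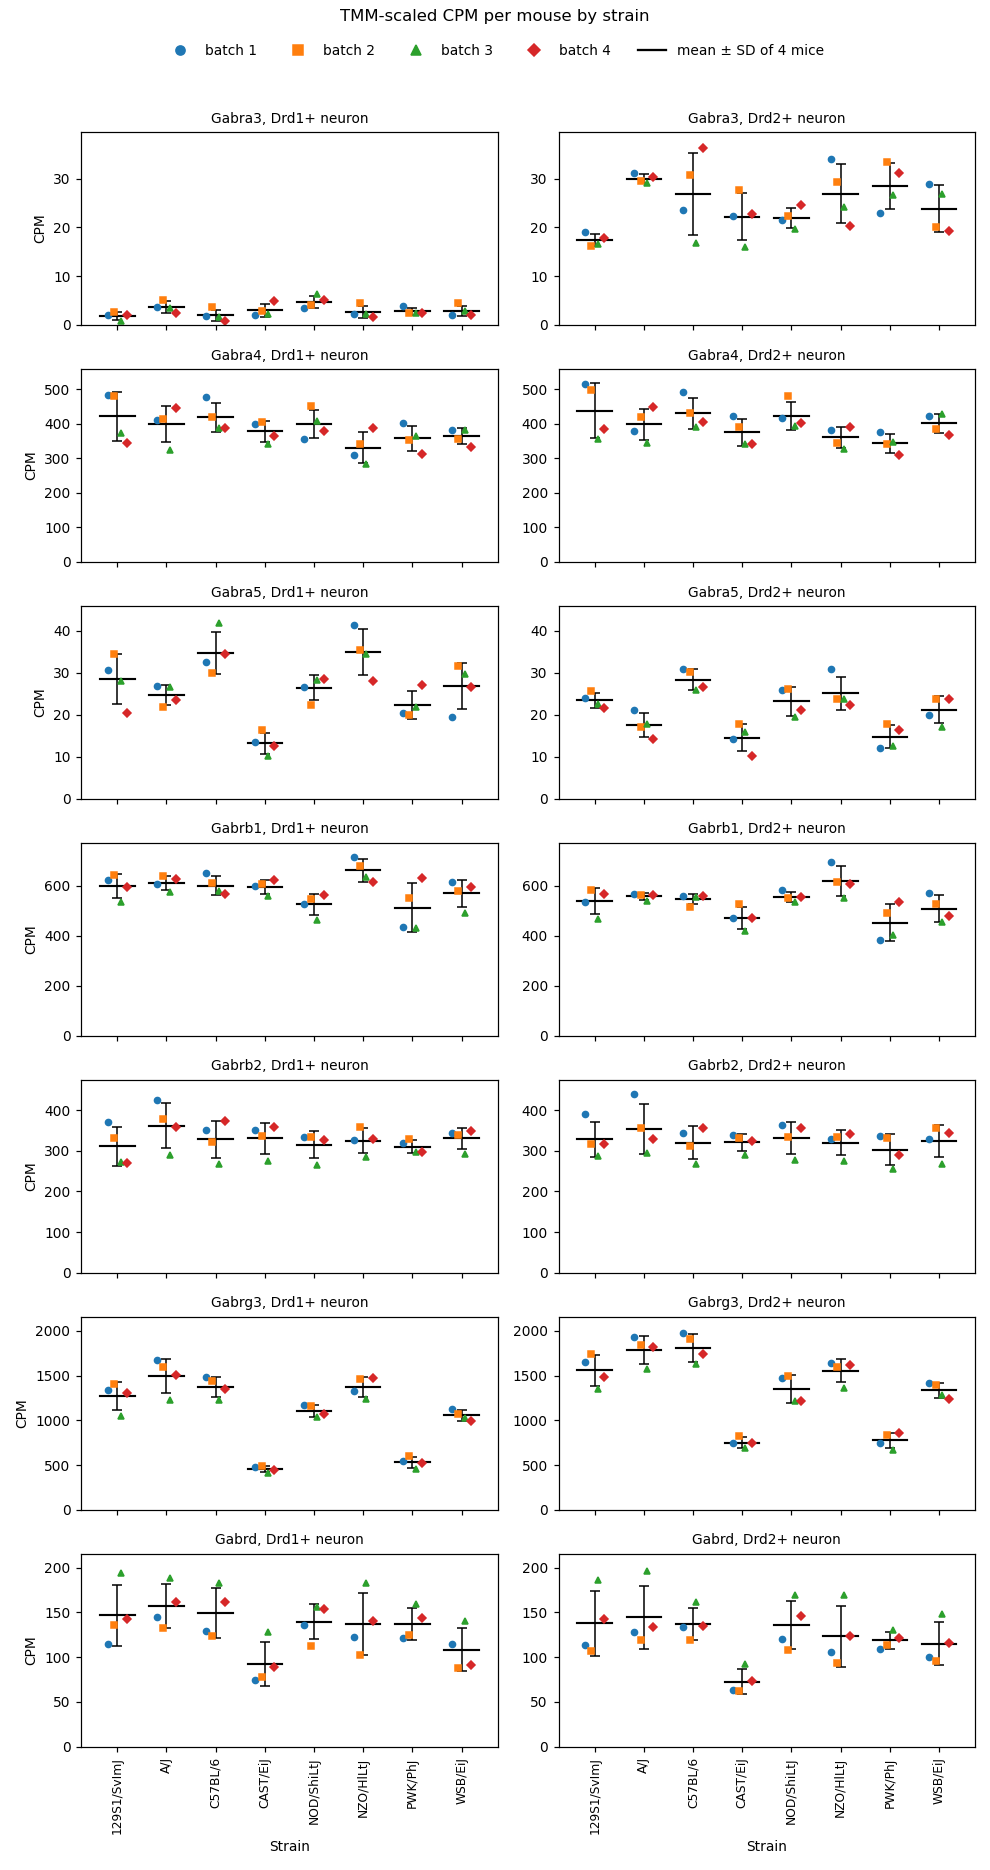
TMM-scaled CPM of each subunit gene (rows of panels) in Drd1+ (left) and Drd2+ neurons (right), 1 point per mouse, with marker and colour giving the batch and the black line and bar the mean and SD of the 4 mice of a strain. For Gabrg3 all 8 mice of CAST/EiJ and PWK/PhJ lie below all 24 mice of the other strains in both clusters.

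Gabra4 was highest in 129S1/SvImJ in both kinds of projection neuron. In Drd1+ neurons its 4 mice had 484, 481, 374 and 345 CPM in batches 1 to 4, and the 4 mice of the lowest strain, NZO/HlLtJ, had 309, 342, 283 and 389. These 2 ranges overlapped, and the means over strains ran only from 331 to 421 CPM. The strain term was called in edgeR (adjusted p = 0.0279) but not without batch 2 (0.311), without batch 1 (0.138), with median UMIs per nucleus as a covariate (0.199) or without the batch as a block (0.0733). In Drd2+ neurons Gabra4 ran from 344 ± 27.8 CPM in PWK/PhJ to 438 ± 79.7 in 129S1/SvImJ (SD, n = 4; edgeR adjusted p = 0.00347), and this call was lost without batch 2 (0.111), with the covariate (0.108) and, narrowly, without the block (0.0501). PWK/PhJ, at 378, 342, 346 and 309.6 CPM, was below the mean of the other 7 strains by a log2 difference of -0.23 ± 0.066 (SE), with 4 of 4 mice below that mean. Its edgeR adjusted p of 0.00649 became 0.769 with median UMIs as a covariate, 0.0519 without batch 2 and 0.0538 without batch 4. PWK/PhJ also had the lowest median UMIs per nucleus of the 8 strains in Drd2+ neurons, 5245 against up to 6238 in A/J.

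Gabra5 showed its lowest level in CAST/EiJ. In Drd1+ neurons the 4 CAST/EiJ mice had 13.5, 16.5, 10.3 and 12.7 CPM, while the other 28 mice ran from 19.4 to 41.8. The groups did not overlap, and CAST/EiJ was the lowest of 8 strains in 4 of 4 batches. The log2 difference from the mean of the other strains was -1.04 ± 0.14 (SE; edgeR adjusted p = 8.18e-08), and the call held in all 12 alternatives tried. At the upper end NZO/HlLtJ had 41.4, 35.5, 34.5 and 28.1 CPM and C57BL/6 had 32.7, 30.0, 41.8 and 34.6. Both were above the other strains, by 0.53 ± 0.11 (edgeR adjusted p = 0.000449) and 0.49 ± 0.11 (0.00140). The C57BL/6 call was lost without batch 3, its highest mouse (0.0566).

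In Drd2+ neurons CAST/EiJ and PWK/PhJ were again the 2 lowest strains for Gabra5, and C57BL/6 and NZO/HlLtJ the 2 highest. C57BL/6 was the highest of 8 strains in 4 of 4 batches, with 30.9, 30.2, 25.9 and 26.7 CPM. CAST/EiJ had 14.2, 17.9, 15.9 and 10.3 CPM, and PWK/PhJ had 12.2, 17.8, 12.7 and 16.4. The values of CAST/EiJ and PWK/PhJ thus covered almost the same range, and both were lower than the mean of the other strains, by -0.58 ± 0.13 and -0.54 ± 0.13 on the log2 scale (edgeR adjusted p = 0.000687 and 0.00103). In Drd1+ neurons PWK/PhJ differed from the other strains by -0.21, which was not called. C57BL/6 and NZO/HlLtJ were not separated in either cluster (edgeR adjusted p = 0.933 in Drd1+ and 0.570 in Drd2+ neurons). Whether strain differences in Gabra5 depended on the kind of neuron was tested by an interaction, which was not called (0.535).

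Gabra3 is a gene of low counts in projection neurons. In Drd2+ neurons the 4 mice of 129S1/SvImJ had 19.0, 16.2, 16.7 and 17.9 CPM, against 31.1, 29.5, 29.1 and 30.2 in A/J, the highest strain. These 2 strains did not overlap, although 129S1/SvImJ overlapped with others, as CAST/EiJ reached down to 15.9. The strain term was called in edgeR (adjusted p = 0.00335) and narrowly lost without batch 2 (0.0521). 129S1/SvImJ stood at -0.55 ± 0.14 from the mean of the other strains (edgeR adjusted p = 0.00535), lost without batch 2 (0.0668) and with the UMI covariate (0.0585). In Drd1+ neurons NOD/ShiLtJ was highest with 3.56, 4.05, 6.25 and 5.15 CPM, from 46 counts in its 4 libraries, and 129S1/SvImJ lowest with 1.95, 2.71, 0.792 and 2.02, from 26 counts. The edgeR adjusted p of this strain term was 0.0415, and it became 0.313 without batch 3, 0.125 without batch 1, 0.109 without batch 4, 0.0700 with DESeq2, 0.0558 with the UMI covariate and 0.0545 without the block.

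Gabrb1 was highest in NZO/HlLtJ in both kinds of projection neuron. The 4 mice had 715, 681, 635 and 617 CPM in Drd1+ neurons and 697, 616, 552 and 607 in Drd2+ neurons. PWK/PhJ, the lowest strain, had 437, 552, 431 and 633 CPM in Drd1+ and 384, 492, 402 and 536 in Drd2+ neurons. In Drd1+ neurons the PWK/PhJ mouse of batch 4 lay above the NZO/HlLtJ mouse of the same batch, and PWK/PhJ had the widest spread of the 8 strains (SD 97.4). The strain term was called in both clusters in edgeR (adjusted p = 0.000586 and 7.53e-05) and in each alternative. NZO/HlLtJ was higher than the other strains by 0.21 ± 0.055 in Drd1+ neurons (edgeR adjusted p = 0.00445; 0.0558 without batch 1 and 0.0526 without batch 3) and by 0.25 ± 0.058 in Drd2+ neurons (0.00102). PWK/PhJ was lower by -0.22 ± 0.057 and -0.26 ± 0.061, calls that were lost without batch 1 (0.154 and 0.0748).

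Gabrb2 was the one member whose strain term was not called in either kind of projection neuron. Strain means ran from 311 ± 17.1 (PWK/PhJ) to 362 ± 56.2 CPM (A/J) in Drd1+ neurons and from 303 ± 38.9 to 355 ± 61.7, for the same strains, in Drd2+ neurons (SD, n = 4). The edgeR adjusted p of the strain term was 0.132 and 0.266, and no alternative changed either call. A/J, the highest strain in both clusters, was above the others in Drd1+ neurons (log2 difference 0.17 ± 0.054, edgeR adjusted p = 0.0249), and no other strain was called. The interaction of strain and kind of neuron was not called for Gabrb2 (0.766). The A/J call in Drd1+ neurons was lost in 5 of 12 alternatives: without batch 1 (0.281), without batch 2 (0.116), with library totals (0.101), without the block (0.200) and with the UMI covariate (0.120). Batch means lay further apart than strain means, with 280.5 ± 11.6 CPM in batch 3 and 353 ± 32.8 in batch 1 in Drd1+ neurons (SD over 8 mice).

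Gabrg3 fell into a low and a high set of strains. In Drd1+ neurons CAST/EiJ had 482, 489, 413 and 439 CPM and PWK/PhJ 539, 604, 458 and 522, while the lowest of the other 24 mice had 988. No mouse of the other strains overlapped with these 8. The highest strain, A/J, had 1669.9, 1593, 1232 and 1505 CPM. CAST/EiJ was lower than the other strains by -1.30 ± 0.053 on the log2 scale (edgeR adjusted p = 4.98e-24) and PWK/PhJ by -1.05 ± 0.052 (5.89e-21). CAST/EiJ was the lowest of 8 strains in 4 of 4 batches, and among pairs of neighbours in the order, PWK/PhJ was above CAST/EiJ (edgeR adjusted p = 0.00818). Above them, WSB/EiJ (1054 ± 61.0 CPM), NOD/ShiLtJ (1107 ± 65.0) and 129S1/SvImJ (1274 ± 158) were followed by C57BL/6 (1375 ± 114), NZO/HlLtJ (1376 ± 112) and A/J (1500.1 ± 191). The means of C57BL/6 and NZO/HlLtJ differed by less than their spread.

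In Drd2+ neurons Gabrg3 was 742, 827, 688 and 748 CPM in CAST/EiJ and 745, 839, 669 and 854 in PWK/PhJ. These 8 values again lay below all others, of which the lowest was 1212 in NOD/ShiLtJ. C57BL/6 was highest with 1974, 1905, 1635 and 1737 CPM, next to A/J with 1934, 1839, 1569 and 1819.7. CAST/EiJ differed from the mean of the other strains by -0.91 ± 0.054 (edgeR adjusted p = 5.59e-19) and PWK/PhJ by -0.85 ± 0.053 (4.21e-18). All of these CAST/EiJ and PWK/PhJ calls held in the 12 alternatives, where the highest adjusted p was 1.41e-15 for CAST/EiJ in Drd1+ neurons and 3.81e-11 for PWK/PhJ in Drd2+ neurons. The smaller Drd1+ neuron_2 cluster, where Gabrg3 was most abundant, had CAST/EiJ lowest as well, at 1892, 1775, 1931 and 1838 CPM against 1754 to 3529.7 in the other mice, which overlap. Its log2 difference there was -0.47 ± 0.089 (edgeR adjusted p = 0.000132), while PWK/PhJ, at 2420.3, 2285, 1754 and 2091 CPM, was not called.

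Gabrd was lowest in CAST/EiJ in every batch, in both kinds of projection neuron. In Drd2+ neurons its 4 mice had 63.3, 61.6, 92.9 and 73.0 CPM, and the other 28 mice had 93.0 to 197. The groups did not overlap, although the CAST/EiJ mouse of batch 3 nearly reached the lowest other mouse. In Drd1+ neurons CAST/EiJ had 74.7, 77.7, 128 and 89.5 CPM, and the other mice began at 87.9, so the groups overlapped there. CAST/EiJ was lower by -0.84 ± 0.071 on the log2 scale in Drd2+ (edgeR adjusted p = 1.39e-13) and by -0.60 ± 0.072 in Drd1+ neurons (3.50e-09), and both calls held in the 12 alternatives. Batch 3 was high for Gabrd in all strains, with a mean of 167 ± 24.4 CPM in Drd1+ neurons against 112 to 136 in the other batches, and it was also the batch of fewest UMIs per nucleus. WSB/EiJ was the next lowest strain in Drd1+ neurons at 115, 87.9, 140.3 and 91.3 CPM (log2 difference -0.31 ± 0.069, edgeR adjusted p = 0.000848), a call lost without batch 4 (0.0512) and without the block (0.182). A/J was highest in both clusters, 157 ± 24.2 and 145 ± 35.2 CPM.

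**Figure D3:**
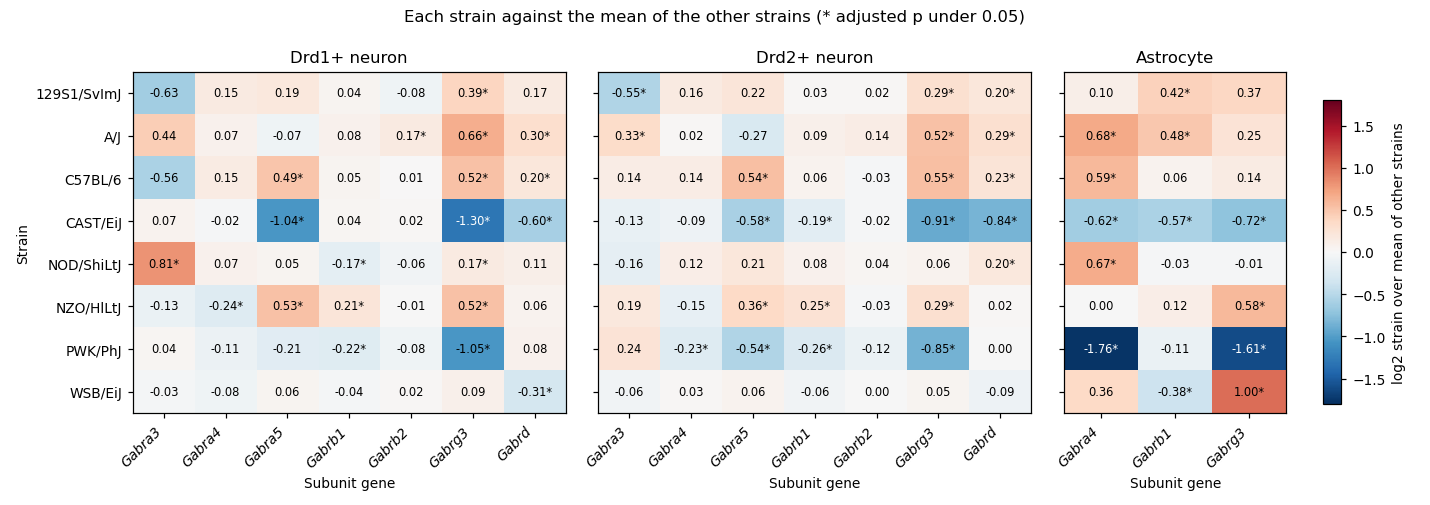
Log2 difference of each strain (rows) from the mean of the other 7 strains for each subunit gene tested (columns) in Drd1+ neurons, Drd2+ neurons and astrocytes, with * for an edgeR adjusted p under 0.05. The darkest cells are Gabra4 (-1.76) and Gabrg3 (-1.61) of PWK/PhJ in astrocytes and Gabrg3 of CAST/EiJ in Drd1+ neurons (-1.30).

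Of the 56 combinations of member and strain, 20 were called in Drd1+ and 21 in Drd2+ neurons, against 20.4% and 17.7% of all genes over the 8 strains. The 8 comparisons of a gene are tied, as each strain also enters the mean that the others are set against. In Drd1+ neurons Gabrg3 of NOD/ShiLtJ (1107 CPM) was called higher by 0.17 (edgeR adjusted p = 0.0102), a call lost in 4 of 12 alternatives. The mean it was set against held CAST/EiJ (456 CPM) and PWK/PhJ (531 CPM). The Drd1+ count was 13 without batch 3 and 13 without the block. The absolute log2 differences called in Drd1+ neurons ran from 0.17 to 1.30. CAST/EiJ was lower for 3 members in Drd1+ neurons (Gabra5, Gabrg3 and Gabrd) and for 4 in Drd2+ neurons (these and Gabrb1), beside 15.9% and 13.3% of all genes. The call of Gabrb1 (edgeR adjusted p = 0.0148) was lost in 4 of 12 alternatives, among them without batch 1, 3 or 4 (up to 0.0728). PWK/PhJ was lower for 2 members in Drd1+ neurons (Gabrb1 and Gabrg3), beside 17.3% of all genes, and for 4 in Drd2+ neurons (Gabra4, Gabra5, Gabrb1 and Gabrg3), beside 15.1%. Neighbours in the order of strains, which are by definition the closest pairs, were called in 6 of 49 cases in Drd1+ neurons and 4 of 49 in Drd2+ neurons. Without batch 2 the Drd1+ count was 3, and leaving out any 1 batch brought the Drd2+ count to 2, as the fit without the block did in both clusters. Over all genes and the 28 pairs of strains, neighbours or not, 20.1% of tests were called in Drd1+ and 17.6% in Drd2+ neurons. All of these neighbours concerned Gabra5, Gabrg3 or Gabrd.

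In astrocytes 3 members had counts enough to be tested, Gabra4, Gabrb1 and Gabrg3, and all 3 had a strain call, where 21.5% of all genes did. Of their 24 combinations with a strain, tied within a gene as above, 13 were called, against 4.95% over all genes. That count was 8 without batch 1, without batch 2 or with the UMI covariate, and 6 of the 13 calls held in every alternative. The 4 PWK/PhJ mice had 34.5, 23.3, 21.1 and 24.7 CPM of Gabra4, and the other 28 mice 45.2 to 153. The groups did not overlap, and PWK/PhJ was lowest in 4 of 4 batches. Its log2 difference from the other strains was -1.76 ± 0.25 (edgeR adjusted p = 5.48e-08). A/J, with 136, 108, 119.8 and 124 CPM, was higher by 0.68 ± 0.15 (0.00208).

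Gabrg3 in astrocytes was low in the 4 PWK/PhJ mice (23.9, 34.9, 42.3 and 70.6 CPM) and in those of CAST/EiJ (57.04, 94.1, 47.3 and 76.7). WSB/EiJ, the third lowest strain in both kinds of projection neuron, was highest at 231, 203, 134 and 213 CPM, above all other mice in 3 of its 4 animals. PWK/PhJ was lower than the other strains by -1.61 ± 0.23 (edgeR adjusted p = 1.63e-07) and WSB/EiJ higher by 1.00 ± 0.15 (3.26e-07), each in all 12 alternatives. CAST/EiJ was lower by -0.72 ± 0.20 (0.00880), a call lost without batch 1 (0.184) and without batch 4 (0.0719).

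Gabrb1, which had its highest level in astrocytes, was lowest in CAST/EiJ with 2081, 1997, 1798 and 1678 CPM and highest in A/J with 3449.8, 4049, 3052 and 3687. These 2 strains did not overlap. CAST/EiJ was lower than the others by -0.57 ± 0.093 (edgeR adjusted p = 1.70e-06) and A/J higher by 0.48 ± 0.082 (1.15e-05), both in all 12 alternatives. 129S1/SvImJ, at 3091, 3766, 3178 and 3671 CPM, was higher by 0.42 ± 0.083 (0.000301), but not without batch 4 (0.0888) or with the UMI covariate (0.255). NZO/HlLtJ, the highest strain for Gabrb1 in projection neurons, averaged 2877 ± 121 CPM in astrocytes and was not called there.

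Astrocyte libraries also held projection neuron transcripts, and the values stand here beside the astrocyte calls. The summed level of 14 projection neuron markers in astrocytes was lowest in PWK/PhJ, 620.1 ± 153 CPM, and highest in 129S1/SvImJ, 866 ± 406 (SD, n = 4), with none of the 14 at 0. Relative to the higher of the Drd1+ and Drd2+ levels, astrocytes had 21.5% of Gabra4 and oligodendrocytes 4.21%, and the corresponding shares were 8.28% and 0.932% for Gabrg3 and 449% and 3.34% for Gabrb1. For the 14 markers the median share was 14.4% in astrocytes (2.38% to 82.6%) and 12.9% in oligodendrocytes (1.02% to 77.4%). For Gabrd the share in astrocytes, 11.8%, was below that in oligodendrocytes, 14.1%. The part of neuronal transcripts in the strain calls in astrocytes was not tested.

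**Figure D4:**
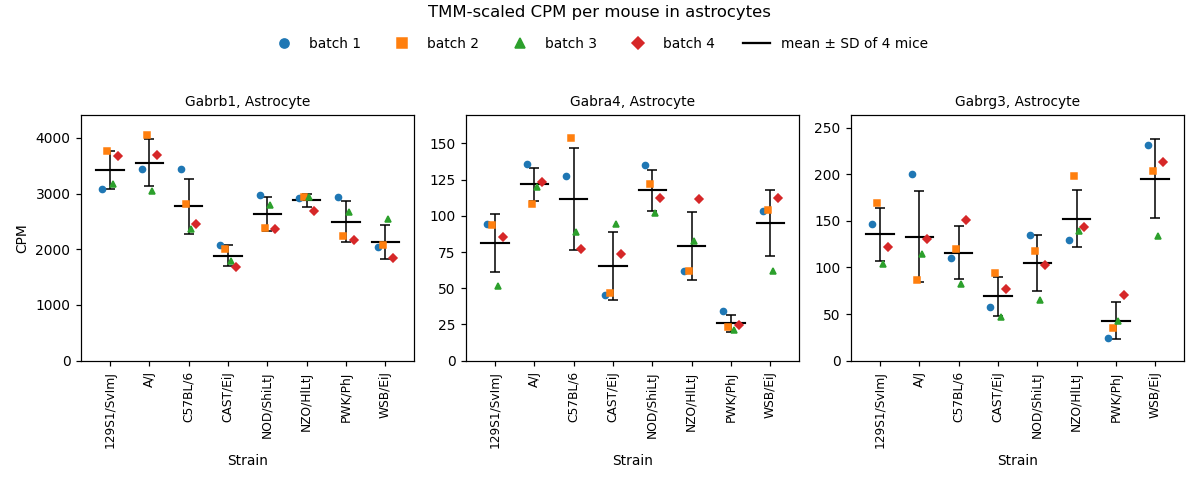
TMM-scaled CPM of Gabrb1, Gabra4 and Gabrg3 in astrocytes, 1 point per mouse by strain and batch, with the mean and SD of the 4 mice in black (y axes differ between panels). The 4 PWK/PhJ points of Gabra4 (21.1 to 34.5) lie below all other points of that panel.

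In the other clusters tested, few members had a strain call. In Drd1+ neuron_2 it was 1 of 6 (Gabrg3), where 17.3% of all genes were called. Nxph1+ interneurons had 1 of 6, Gabra3, beside 1.53% of genes. Gabra3 there was 200.5, 236, 103 and 189 CPM in PWK/PhJ against 18.0 to 73.7 in WSB/EiJ, the lowest strain, and 3 of the 4 PWK/PhJ mice were above all others. The edgeR adjusted p of its strain term was 0.0384, and the call was lost in 8 of 12 alternatives. These included each batch left out (0.109 to 0.252), a minimum of 20 nuclei per library (0.144), the UMI covariate (0.109) and the fit without the block (0.0605). Endothelium had 1 of 5, Gabrg3 (edgeR adjusted p = 0.00295; 0.0807 without the block), beside 3.23% of genes. CAST/EiJ, with 202, 131 and 172 CPM in 3 mice, and PWK/PhJ, with 81.4, 259, 373 and 192, were the lowest strains for endothelial Gabrg3, as in projection neurons, whose markers this cluster held at 58.7% of their Drd1+ level; their part was not tested. The strain term of no tested member was called in oligodendrocytes (0 of 4), macrophages (0 of 1) or the Polydendrocyte/Oligodendrocyte cluster (0 of 4) with edgeR, where 34.8%, 24.8% and 1.24% of all genes were. At an unadjusted p under 0.05 the counts in these clusters were 1, 0 and 2, and DESeq2 called 0, 0 and 1. The shares of all genes by these 2 measures are not given here, so these counts have no background beside them. In oligodendrocytes 1 single strain did differ: PWK/PhJ had 24.4, 40.9, 24.3 and 38.4 CPM of Gabrb1, against 5.1997 to 37.2 in the other mice, which overlap. PWK/PhJ was higher there by 0.76 ± 0.23 on the log2 scale (edgeR adjusted p = 0.0124), a call lost without batch 4 (0.248) and with the UMI covariate (0.0737).

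Projection neurons of the 2 pathways were compared within each mouse, as the log2 ratio of Drd2+ over Drd1+ neurons. Gabra3 was higher in Drd2+ neurons in 32 of 32 mice (mean log2 ratio 2.87 ± 0.58, SD, over a Drd1+ level no higher than in glia), and so was Gabrg3 (0.40 ± 0.18). The ratio was 0.07 ± 0.10 for Gabra4, with 24 of 32 mice above 0, and 0.02 ± 0.092 for Gabrb2, with 17 of 32. For Gabrb2 the sign of the mean turned with library totals in place of TMM (-0.0077). The remaining members leaned toward Drd1+ neurons, with -0.10 ± 0.17 for Gabrd (8 of 32 mice above 0), -0.12 ± 0.13 for Gabrb1 (5 of 32) and -0.28 ± 0.32 for Gabra5 (7 of 32). Library totals in place of TMM left only the NOD/ShiLtJ mice of batches 1 and 3 above 0 for Gabrb1.

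The strain differences themselves were not the same in the 2 kinds of neuron for Gabrg3 and Gabrb1. The interaction of strain and cluster, with the mouse as a block, was called for these 2 of 7 members (edgeR adjusted p = 2.65e-18 and 1.22e-05), where 4.58% of all genes were called. For Gabrg3 the mean log2 ratio was 0.74 ± 0.071 in CAST/EiJ (0.64 to 0.80) and 0.57 ± 0.12 in PWK/PhJ (0.48 to 0.74), and 0.19 to 0.42 in the other strains. All 4 CAST/EiJ and all 4 PWK/PhJ mice thus exceeded the highest mouse of the other strains, 0.44. For Gabrb1 the ratio was positive in NOD/ShiLtJ, 0.10 ± 0.11 (0.01 to 0.23), and most negative in CAST/EiJ, -0.32 ± 0.091 (-0.38 to -0.18). With TMM scaling NOD/ShiLtJ was the one strain with all 4 mice above 0 for Gabrb1. With library totals its mice of batches 2 and 4 stood at -0.0016 and -0.018. Both interaction calls were lost without the mouse block (edgeR adjusted p = 0.482 and 1), a fit that ignores that both libraries come from the same animal. Gabrd was not called (0.234) but was without batch 1 (0.0491).

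**Figure D5:**
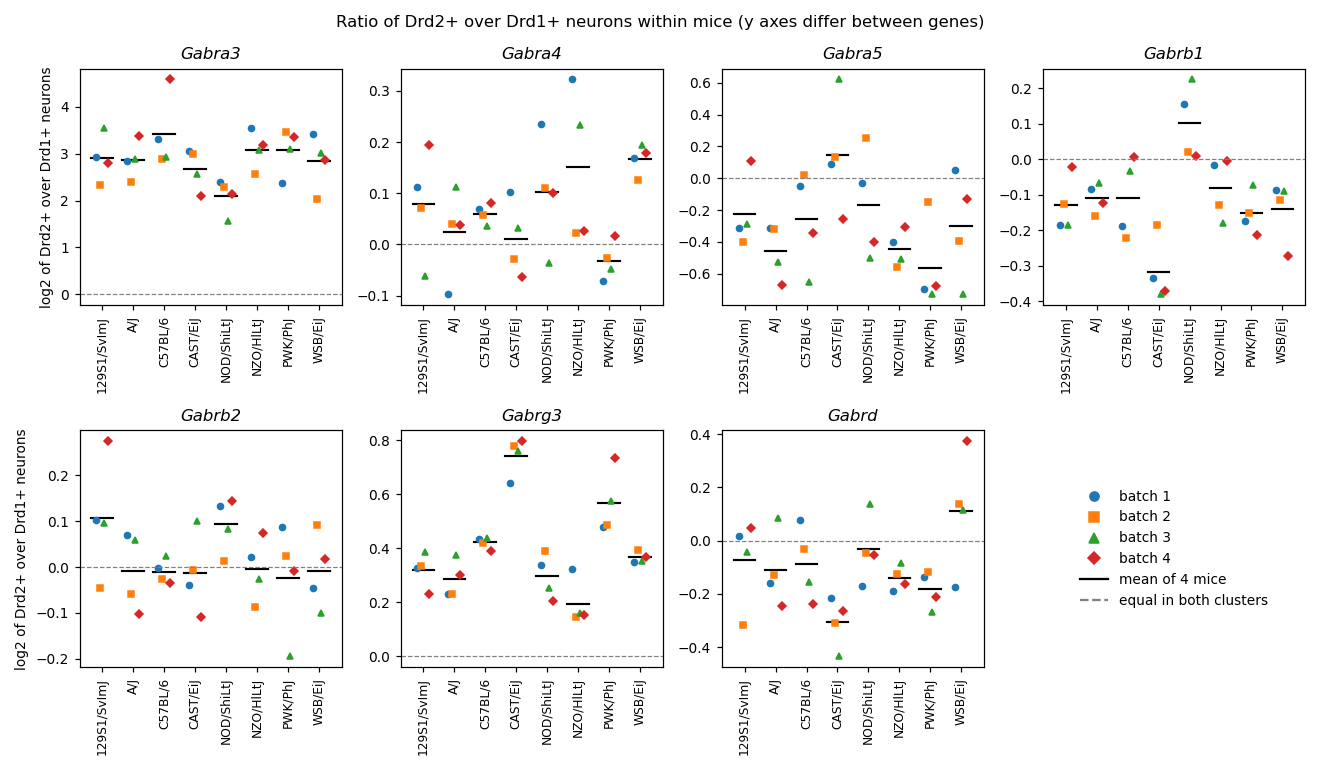
Log2 ratio of Drd2+ over Drd1+ neurons within each mouse for the 7 subunit genes (panels, with different y axes), 1 point per mouse by strain and batch, the mean of 4 mice as a black line and equality as a dashed line. Every point of Gabra3 and Gabrg3 lies above 0, and CAST/EiJ (0.74) and PWK/PhJ (0.57) have the highest means of Gabrg3.

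The strain calls of the other genes of GABA signalling stand beside a background of 61.7% of all genes in Drd1+ and 55.9% in Drd2+ neurons. Of the 12 other GABA-A subunit genes, 5 were tested in projection neurons, and the strain term was called for 5 in Drd1+ and 4 in Drd2+ neurons. Gabra2 ran from 351 ± 24.7 CPM in 129S1/SvImJ to 486 ± 27.3 in C57BL/6 in Drd1+ neurons (edgeR adjusted p = 4.79e-08). Gabrg1, a gamma subunit, ran from 2.70 to 13.7 CPM over the strain means in Drd1+ neurons (edgeR adjusted p = 0.0101) and from 3.25 to 13.3 CPM in Drd2+ neurons, with the same lowest and highest strains, where it was not called (0.159). In astrocytes Gabrg1 ran from 127 CPM in CAST/EiJ, its lowest strain in projection neurons as well, to 232 in NOD/ShiLtJ (edgeR adjusted p = 5.19e-05). The part of background RNA in its low projection neuron levels was not tested.

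Among 16 genes of receptor clustering and trafficking, 11 were called in Drd1+ and 11 in Drd2+ neurons. Of all genes tested, 61.7% and 55.9% were called, which is the background for each count in this paragraph. The genes named were picked for a large F in Drd1+ neurons. Insyn2b, of a family of inhibitory synapse proteins, ran from 1.20 ± 0.355 CPM in CAST/EiJ to 26.5 ± 1.78 in A/J in Drd1+ neurons (edgeR adjusted p = 4.36e-09), the same lowest and highest strains as Gabrg3. Shisa7, a partner protein of the receptor, was highest in CAST/EiJ at 130.2 ± 10.99 CPM and lowest in NOD/ShiLtJ at 78.0 ± 1.03 (4.54e-12). Iqsec3, a gephyrin-binding exchange factor, was lowest in CAST/EiJ at 3.06 ± 1.23 CPM and highest in C57BL/6 at 18.1 ± 3.87 (1.47e-11). Of 7 tested genes of GABA synthesis, release, uptake and breakdown, 5 were called in Drd1+ and 4 in Drd2+ neurons. Gad1, a GABA-making enzyme, ran from 65.2 ± 6.17 CPM in CAST/EiJ to 142 ± 18.5 in NOD/ShiLtJ in Drd1+ neurons (edgeR adjusted p = 1.67e-11). Aldh5a1, which ends the breakdown of GABA, ran from 17.2 ± 2.45 CPM in WSB/EiJ to 31.7 ± 4.69 in NZO/HlLtJ (6.15e-07). The chloride transporters Slc12a2 and Slc12a5, which set the chloride gradient that the receptor uses, were called in Drd1+ neurons (0.00675 and 0.0444), and Slc12a5 was not in Drd2+ neurons (0.0957). Of 5 GABA-B receptor genes 3 were called in each kind of neuron, with Kctd16, an auxiliary subunit, from 1303 ± 51.8 CPM in WSB/EiJ to 1935 ± 237 in A/J in Drd1+ neurons (1.94e-07).

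Genes with the most similar pattern over the 18 clusters were found by Pearson's r of log2(CPM + 1) over 15711 genes, as a description of clusters that share libraries and depth. Nearest to Gabrg3 were Gpr158 (r = 0.95), Rit2 (0.95) and Nrg1 (0.94). Gabrd was most alike to Kcnip2 (0.94), Ptpn5 (0.92) and Akap5 (0.92), and Gabra4 to Gm48677 (0.94) and Gm15738 (0.93). Gabrb2 was near to 5730522E02Rik and Me3, each at 0.96. For Gabra5 they were Abcc8 (0.95), Mlip (0.91) and Prrg3 (0.89). Gabrb1 had Ppp2r2b (0.89), Wnk2 (0.86) and Arntl2 (0.86), and Gabra3 had Thsd7b (0.89), Clstn2 (0.88) and Fam155a (0.87). Prrg3 and Arntl2 were near the 10 CPM in 1 cluster that the search asked for. Their highest levels were 12.4 CPM in Slc17a7+ neurons and 14.4 CPM in Nxph1+ interneurons.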

How the data were processed

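The deposited count matrices hold raw UMI counts per gene and nucleus, made by the authors with no normalization. The submitters' processing notes list bcl2fastq 2.20.0.422, Cell Ranger ARC 2.0.0 and the builds mm10 and GRCm38. The deposited table of nuclei gives strain calls (Demuxlet), quality filters (over 200 and under 7500 genes, under 15% mitochondrial counts), DoubletFinder calls and cluster names, all used unchanged. No further doublet caller was run. Peak positions, all with an end minus start of 999, came from the deposited index, which gives no signal.

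Counts were summed per mouse and cluster, with a minimum of 10 nuclei per library. Testing needed 3 or more mice per strain, a condition met by 9 clusters. After filterByExpr by strain and TMM scaling, robust quasi-likelihood models with strain and batch were fitted over all genes (edgeR 4.0.16 under R 4.3.3). Tests were made of the strain term, each strain against the mean of the other 7, and 28 pairs of strains in Drd1+ and Drd2+ neurons, with Benjamini-Hochberg adjustment over all genes, called at an adjusted p under 0.05. Within-mouse ratios used a prior count of 2. For the strain tests, p-values set a difference against the spread between mice left after the batch block. For the interaction they rest on how the within-mouse difference between the clusters varied between mice of a strain.

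The batch pairs the mice, as the labels say that each batch pooled 1 mouse of every strain. Deviations from strain means over 12250 genes correlated at a mean of 0.147 between mice of the same batch (112 pairs, lowest -0.204) and at -0.048 between batches. As the deviations from a strain mean cancel out over its mice, the second value is largely set by the centring and is no separate comparison. On simulated counts with 200 genes changed 2-fold the strain term recovered 72.5% in Drd1+ neurons, 75.5% in Drd2+ neurons and 43.0% in astrocytes, and the interaction 69.5%. Of the calls made there 7.64%, 6.79%, 5.49% and 4.79% in that order were of unchanged genes, the first 3 above the nominal 5%. The strain simulations held no batch effect, and each changed gene was changed in a single strain. In the data 61.7% of genes were called in Drd1+ neurons, and called differences of members there began at a log2 of 0.17. The simulated shares therefore need not hold for the fits to the data. Other scalings, filters, tools and replicate sets were tried and are described at the end.

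All 7 members are named. From the lists of GABA genes, the called genes among the 3 with the largest F in Drd1+ neurons and each tested GABA-A subunit are named, and for each member the 3 genes of most similar pattern, except for some genes that are not reported here. The members, the lists and the rules were chosen with earlier results of these data known.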

Additional observations from a re-analysis of the deposited data

Results flagged for a closer look

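In 7 of 136 groups of 4 mice (a member in a cluster and strain), 1 mouse stood apart from the other 3 by Dixon's criterion, close to the 6.8 that chance gives at 1 in 20. Gabra3 in Drd1+ neurons of PWK/PhJ was 3.91 CPM in batch 1 against 2.42 to 2.53, and Gabrb2 in Drd1+ neurons of NOD/ShiLtJ was 265 CPM in batch 3 against 328 to 334. In Drd2+ neurons, Gabra5 of NZO/HlLtJ was 30.8 CPM in batch 1 against 22.3 to 23.7, and Gabrg3 of NZO/HlLtJ was 1361 CPM in batch 3 against 1601 to 1643. Gabrb1 in the same cluster was 539 CPM in the A/J mouse of batch 3 against 562 to 567, and 517 CPM in the C57BL/6 mouse of batch 2 against 554 to 561. In astrocytes Gabrb1 of NZO/HlLtJ was 2696 CPM in batch 4 against 2928 to 2948.

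The strain effect differed between Drd1+ and Drd2+ neurons for Gabrg3 (edgeR interaction, adjusted p = 2.65e-18) and Gabrb1 (adjusted p = 1.22e-05). For Gabrg3 the log2 ratio of Drd2+ over Drd1+ neurons was above 0 in 32 of 32 mice and highest in CAST/EiJ at 0.74, and for Gabrb1 it was above 0 in 5 of 32 mice, with a lowest mean of -0.32 (CAST/EiJ) and a highest of 0.10 (NOD/ShiLtJ). With library totals in place of TMM, fewer mice were above 0 for Gabrb1.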

How the results depend on the processing

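No called result changed direction, and the mean ratio of Gabrb2, with no test, moved to -0.0077 with library totals. The count of called members, 6 of 7 in both projection neurons, fell in some settings. In Drd1+ neurons 4 to 5 were called with 1 batch left out and 4 to 6 in the other alternatives. In Drd2+ neurons these counts were 4 to 6 and 5 to 6. The main fit called 61.7% of all genes in Drd1+ and 55.9% in Drd2+ neurons. Shares of all genes in the other settings are not given here, so the counts in those settings have no background beside them. The strain calls of Gabrg3, Gabrd, Gabra5 and Gabrb1 in projection neurons, of the 3 members in astrocytes and of Gabrg3 in Drd1+ neuron_2 held in all alternatives run, 12 of the 18 strain calls, and of 61 calls of a strain against the others 27 did. Without the batch as a block, 25 of 111 results changed their call: the counts of called strain differences fell to 13 in Drd1+ neurons, neighbouring pairs to 2 in Drd1+ and 2 in Drd2+ neurons, strain terms to 0 in Nxph1+ interneurons and 0 in endothelium, and the interaction, without the mouse block, to 0. With median UMIs as a covariate astrocytes had 8 strain differences and Nxph1+ interneurons 0 members. Without the 5% of nuclei with most UMIs the members called were 1 in oligodendrocytes, 2 in Drd1+ neuron_2 and 0 in Nxph1+ interneurons, and with 20 nuclei per library 0 in the last. Library totals gave 2 in Drd1+ neuron_2. With no filter on low counts endothelium had 2 members called, Nxph1+ interneurons 2 and the Polydendrocyte/Oligodendrocyte cluster 3, where DESeq2 called 1. Leaving out 1 batch at a time gave 13 to 19 strain differences in Drd1+ neurons, 8 to 12 in astrocytes, 3 to 5 neighbouring pairs in Drd1+ and 2 in Drd2+ neurons, 4 to 5 pairs of highest and lowest strain, chosen on the values tested, in Drd1+ neurons (7 with all batches) and 0 to 1 members in Nxph1+ interneurons, where the 1, without batch 3, was Gabrb1 and not Gabra3. The minimum of 20 nuclei was not run for endothelium or the Polydendrocyte/Oligodendrocyte cluster. Few counts stood behind Gabra3 in Drd1+ neurons (310, in the cluster with the most counts in all), and 4 members did not pass the count filter in astrocytes. The causes of the changes were not tested.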
